A study of Mus musculus with 6 samples.

Results

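T cells carry inhibitory and costimulatory receptors that set how strongly they answer their antigen, and 10 of their genes are described here in regulatory T cells with and without the transcriptional repressor Blimp1. They were taken as a fixed set of names, Ctla4, Cd28, Icos, Pdcd1, Btla, Lag3, Havcr2, Tigit, Cd160 and Vsir, with every array probe annotated to a current or older symbol, and the rule itself uses no measured value. The genes were, however, chosen with earlier results of these data known. They are 10 of 19057 genes on the array. All 10 were above background on at least 2 of the 6 arrays, on 12 probes, and were therefore tested among 9593 genes.

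The cells were CD4+ Foxp3-GFP+ peripheral regulatory T (pTreg) cells, which arise from naive T cells outside the thymus. Naive CD4+ T cells were sorted from pooled lymph nodes and spleens of Foxp3-GFP reporter mice, 8 to 10 weeks old, and equal numbers of control and Blimp1-deficient cells were injected together into C57BL/6 RAG1-/- mice. Foxp3-GFP+ cells of both kinds were recovered from the same kind of host 6 to 8 weeks later, and their RNA was hybridized to Illumina MouseWG 6v2 bead arrays, 3 for each genotype. Control (Ctrl) cells were Prdm1+/+ and Blimp1-deficient (CKO) cells were C57BL/6 Prdm1 flox/flox, both with CD4-Cre, and Prdm1 is the gene of Blimp1. CD4-Cre acts in developing T cells, so the deletion is directed at all T cells of the CKO donors and precedes their turning into pTreg cells. Ctrl donors carried Thy1.1 and CKO donors Thy1.2, and effects of the allotype and its neighbouring genes cannot be told apart from those of Prdm1. RAG1-/- hosts lack T and B cells of their own and keep myeloid, NK and red cells. In the sample labels the same cells are iTreg by one entry and peripheral Treg cells by another, and P+I is added for replicates 2 and 3, while no stimulus is named for replicate 1. These are bulk samples, in which fewer cells expressing a gene and less RNA per cell cannot be told apart.

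CD28 is the main costimulatory receptor of naive T cells, and it binds B7 molecules on antigen-presenting cells. CTLA-4 binds the same ligands more tightly, takes them away from CD28 and is required for regulatory T cell function, while ICOS, a relative of both, sustains activated and regulatory T cells. PD-1, BTLA, TIGIT, LAG-3, TIM-3, CD160 and VISTA are mostly known as brakes on T cells. Blimp1 binds DNA at sites built around the letters GAAAG and mostly represses genes.

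The promoters of the genes with the largest difference in each direction, Ctla4 and Cd160, are printed because the study removed a DNA-binding repressor. Each line gives the 250 bases before a RefSeq start site, 5′ to 3′ in the direction of the gene, with GAAAG or its reverse complement CTTTC in capitals. Ctla4 lies on the + strand of chromosome 1 and its window is chr1:60908775-60909024 of GRCm38.p6. Cd160 lies on the - strand of chromosome 3 and has windows at 2 start sites, chr3:96829352-96829601 and chr3:96814522-96814771.
Ctla4: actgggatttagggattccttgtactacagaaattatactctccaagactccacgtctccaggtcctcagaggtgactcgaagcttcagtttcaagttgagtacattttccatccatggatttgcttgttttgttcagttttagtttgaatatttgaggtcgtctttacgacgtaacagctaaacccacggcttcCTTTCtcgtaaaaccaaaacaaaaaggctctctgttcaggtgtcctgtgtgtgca
Cd160, start 1: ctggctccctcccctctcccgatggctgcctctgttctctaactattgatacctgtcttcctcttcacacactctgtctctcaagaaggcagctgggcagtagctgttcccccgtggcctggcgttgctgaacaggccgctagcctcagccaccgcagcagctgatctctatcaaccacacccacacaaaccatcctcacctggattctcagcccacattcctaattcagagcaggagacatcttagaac
Cd160, start 2: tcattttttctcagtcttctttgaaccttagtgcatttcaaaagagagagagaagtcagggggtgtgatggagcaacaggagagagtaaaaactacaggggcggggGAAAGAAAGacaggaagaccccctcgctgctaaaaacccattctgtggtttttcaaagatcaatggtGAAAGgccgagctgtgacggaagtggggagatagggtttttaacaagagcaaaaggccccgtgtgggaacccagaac
The Ctla4 window held the core once, on the opposite strand, 55 to 51 bases before the start. The first Cd160 window held none, and the second held it 3 times, at 144, 140 and 77 bases before the start, with the 2 farther copies overlapping by 1 base. Searched on both strands, the core stands in 51.5% of all 32851 such windows, so its presence in a window marks out no gene. RefSeq windows were found for 7 of the 10 genes, Cd160 with 2, and 5 of these 8 windows held the core, in Ctla4, Pdcd1, Btla, Tigit and the second window of Cd160. The longer motif AGNGAAAG, which contains the core, was in 0 of the 8 windows and in 7.30% of all windows. A match is a string of letters and was not tested for binding.

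In CKO cells the mRNA of CTLA-4 was lower in every replicate, and that of CD160 was higher. Ctla4 was 2.18-fold lower and Cd160 2.64-fold higher, Vsir was 1.56-fold lower, and the groups overlapped for Cd28. At an adjusted p under 0.05 in limma without a block, 0 of the 10 genes were called, against 0.271% of all genes tested, and 3 of the 10 had an unadjusted p under 0.05, against 8.06%. By the study's own thresholds, which ask for 1.5-fold or more with an unadjusted p below 0.05, 2 of the 10 were lower (Ctla4 and Vsir), against 4.34% of all genes, and 1 was higher (Cd160), against 3.09%. Scaling arrays to one median moved the split of all genes at these thresholds from 58.4% to 71.6% lower, and under it these 3 receptor genes kept their directions and met the thresholds. The replicate numbers were taken to pair the arrays. Both arrays of a pair share a slide and, for replicates 2 and 3, a day, but these 2 pairs also share their slide with each other. With the replicate number as a block, 1 of the 10 was called, Ctla4, against 1.91% of all genes, and 4 were lower at the study's thresholds (Ctla4, Icos, Lag3 and Vsir), against 7.28% of all genes, and 1 higher (Cd160), against 4.75%. The median log2 difference over the 10 genes was -0.32, beside 0.02 over all genes tested, with 6 genes below 0 and 4 above.

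**Figure D1:**
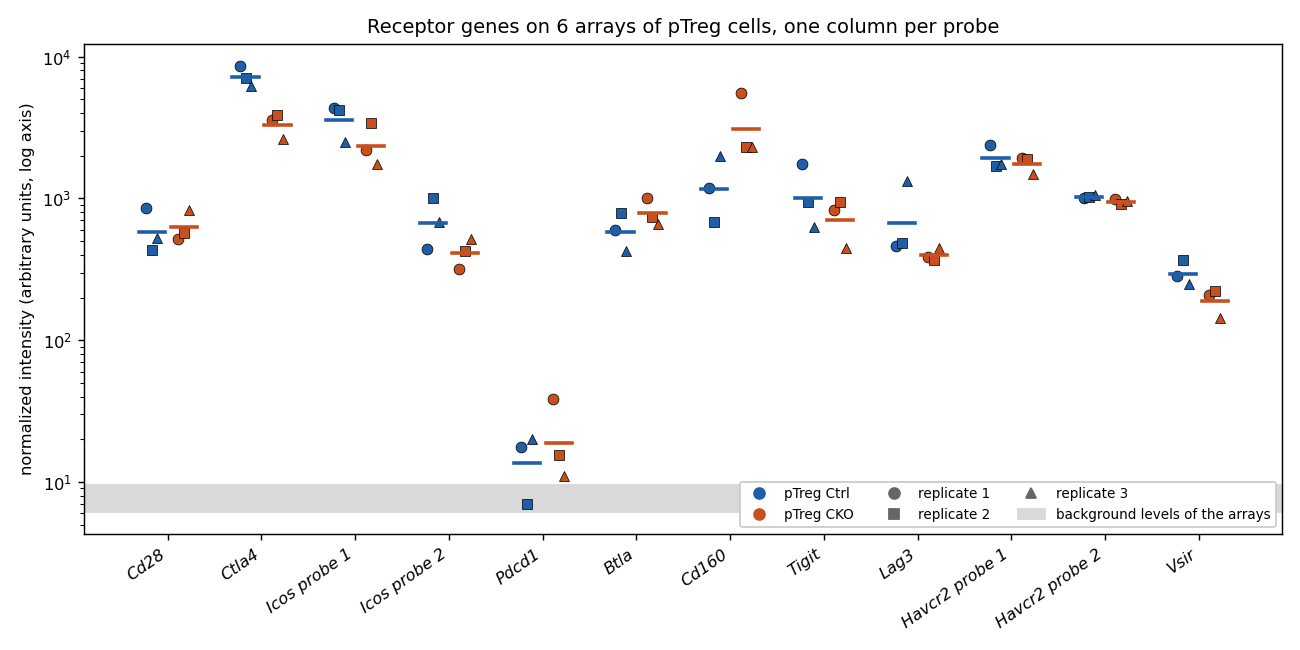
Normalized intensity (log axis) of the 12 probes of the 10 receptor genes on 6 arrays, with Ctrl in blue, CKO in orange, one symbol for each replicate number, bars at the mean of log2 values and a grey band over the background levels of the arrays (6.18 to 9.55). Ctla4, Lag3, Vsir and, by a small margin, the second Havcr2 probe lay lower and Cd160 higher in all CKO arrays. The Pdcd1 probe alone lay near the background. Heights of different probes are not to be compared.

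The normalized intensity of Ctla4 was 8549, 7043 and 6201 in Ctrl replicates 1, 2 and 3, and it was 3581, 3845 and 2621 in CKO replicates 1, 2 and 3. The brightest CKO array lay well below the dimmest Ctrl array. Within pairs the log2 difference was -1.26, -0.87 and -1.24, so the size was alike in the 3 pairs. Means were 7264 ± 1190 in Ctrl and 3349 ± 644 in CKO cells (SD, n = 3 each), and the log2 difference was -1.12 (standard error 0.25, 95% interval -1.70 to -0.54). Its unadjusted p in limma was 0.0021, rank 115 of 9593 genes, and the adjusted p was 0.18 without a block and 0.043 with the replicate block. That call rests on taking 1 probe for each gene, since adjusted over all 14811 named probes above background the blocked value was 0.058. A block for the slide gave an adjusted p of 0.14, and the difference was -1.26 on slide 1, which holds only the pair of replicate 1, and -1.06 on slide 2. Ctla4 met the study's thresholds under all 20 alternatives tried, with log2 differences between -1.27 and -0.96 and adjusted p-values between 0.043 and 0.64.

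Cd28, which encodes the receptor that competes with CTLA-4 for B7, had intensities of 858, 436 and 522 in Ctrl and 518, 570 and 834 in CKO replicates 1, 2 and 3. The groups overlapped, and the pairs went in different directions, by -0.73, 0.39 and 0.68. The log2 difference was 0.11 (95% interval -0.64 to 0.86, adjusted p = 0.98 in limma), an interval that holds both a clear loss and a clear gain. Its sign turned, to values between -0.17 and -0.02, without Ctrl replicate 2, CKO replicate 3 or the pair of replicate 2 or 3.

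Icos, whose product binds ICOS ligand, was measured by 2 probes. The brighter gave 4349, 4216 and 2485 in Ctrl replicates 1, 2 and 3 and 2197, 3422 and 1742 in the CKO replicates. Every CKO array was below its Ctrl partner, by 0.98, 0.30 and 0.51 on the log2 scale, while the groups overlapped. The other probe gave 441, 1010 and 682 in Ctrl and 320, 428 and 521 in CKO, again lower in each pair. Their log2 differences were -0.60 (standard error 0.34, adjusted p = 0.76 in limma) and -0.70 (standard error 0.35), and with the replicate block the brighter probe met the study's thresholds at an adjusted p of 0.23. Averaging the probes, or leaving out CKO replicate 2 or Ctrl replicate 3, also brought Icos to those thresholds.

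In the RefSeq annotation Cd28, Ctla4 and Icos are neighbours on chromosome 1 with 0 protein-coding genes between them. The log2 difference between a pair of genes on one array does not depend on a factor that scales the whole array, and 5 pairs of receptor genes, these neighbours and others with shared ligands, were compared after their values had been seen. Ctla4 minus Cd28, on the log2 scale, was 3.32, 4.01 and 3.57 in Ctrl replicates 1, 2 and 3 and 2.79, 2.75 and 1.65 in the CKO replicates, so no CKO array reached a Ctrl array. It was 1.24 lower in CKO cells (two-sided exact permutation p = 0.10, the smallest that 3 against 3 arrays allow, 0.25 after adjustment over the 5 pairs). Ctla4 minus Icos was lower by 0.52 with the same exact p of 0.10, and Icos minus Cd28 by 0.71 with an exact permutation p of 0.40.

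Pdcd1, the gene of PD-1, was dim. Its probe gave 17.8, 6.98 and 20.1 in Ctrl and 38.7, 15.4 and 11.1 in CKO replicates 1, 2 and 3, and it was above background in 2 Ctrl and 3 CKO arrays. The groups overlapped and the pairs disagreed in direction (log2 differences of 1.12, 0.83 and -0.86), and the estimate of 0.36 had a 95% interval of -0.82 to 1.55.

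BTLA and CD160 share the ligand HVEM, a member of the TNF receptor family. Btla gave 594, 789 and 423 in Ctrl replicates 1, 2 and 3 and 1014, 741 and 658 in the CKO replicates. CKO arrays were higher in pairs 1 and 3 and close to Ctrl in pair 2, with overlap between groups. The log2 difference was 0.44 (95% interval -0.26 to 1.14, adjusted p = 0.85 in limma).

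Cd160, the one of these genes that was higher at the study's thresholds, gave 1181, 683 and 1993 in Ctrl and 5525, 2310 and 2317 in CKO replicates 1, 2 and 3. All CKO arrays were above all Ctrl arrays, but the third pair was close to equal while the first was far apart, with log2 differences of 2.23, 1.76 and 0.22. Ctrl cells had a mean of 1286 ± 661 and CKO cells of 3384 ± 1854 (SD, n = 3 each), and the log2 difference was 1.40 (standard error 0.48, 95% interval 0.29 to 2.51). In limma the unadjusted p was 0.020 and the adjusted p 0.42, or 0.13 with the replicate block. The difference was 2.23 on slide 1 and 0.99 on slide 2, and a block for the slide gave an adjusted p of 0.33. It no longer met the study's thresholds without CKO replicate 1 (log2 difference 0.99), without Ctrl replicate 2 (1.01), without the pair of replicate 1 (adjusted p = 0.80 in limma) or without that of replicate 2 (log2 difference 1.22), and it was 3.98-fold without the pair of replicate 3. The within-array difference of Cd160 and Btla was 0.96 higher in CKO cells, with an exact permutation p of 0.30.

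**Figure D2:**
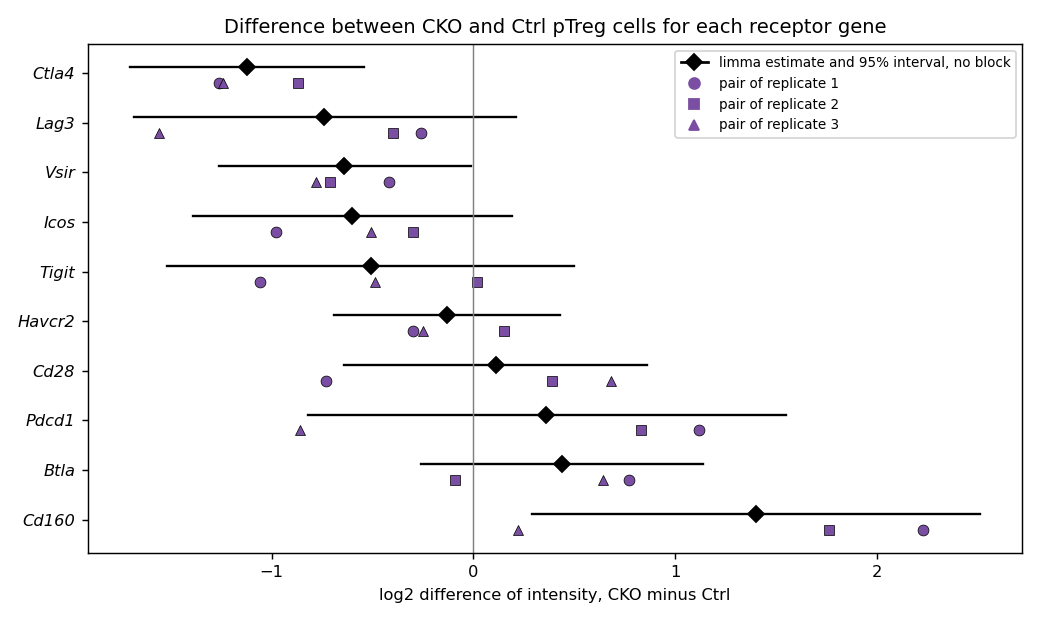
Log2 difference of intensity, CKO minus Ctrl, of each receptor gene on its brightest probe, with the limma estimate and its 95% interval as a black diamond and line and the 3 pairs as purple symbols below it. For Ctla4 the 3 pairs lay between -1.26 and -0.87, whereas the pairs of Cd160 spread from 0.22 to 2.23 and those of Cd28 and Pdcd1 lay on both sides of 0.

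TIGIT competes with the activating receptor CD226 for ligands of the nectin family. Tigit gave 1740, 937 and 626 in Ctrl replicates 1, 2 and 3 and 833, 948 and 445 in the CKO replicates. It was lower in pairs 1 and 3 and nearly equal in pair 2, with overlap between groups. The log2 difference was -0.51 (95% interval -1.52 to 0.50, adjusted p = 0.90 in limma).

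Lag3, which encodes a receptor of MHC class II molecules, gave 462, 486 and 1323 in Ctrl and 387, 369 and 450 in CKO replicates 1, 2 and 3. The groups did not overlap, yet Ctrl replicate 3 stood far above the other Ctrl arrays. The log2 difference of -0.74 (standard error 0.41, adjusted p = 0.75 in limma) was -0.24, or 1.18-fold, without that array. With the replicate block Lag3 met the study's thresholds at an adjusted p of 0.28.

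Havcr2 encodes TIM-3, and its brighter probe gave 2383, 1701 and 1756 in Ctrl and 1929, 1891 and 1479 in CKO replicates 1, 2 and 3. The groups overlapped. Its second probe gave 1007, 1019 and 1064 in Ctrl and 984, 908 and 957 in CKO, where the groups lay side by side without overlap and very near each other. The log2 differences of -0.13 (95% interval -0.69 to 0.43) and -0.12 were alike on both probes.

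Vsir encodes VISTA, a B7 relative that acts both as a ligand and as a receptor. It gave 282, 367 and 248 in Ctrl replicates 1, 2 and 3 and 210, 224 and 144 in the CKO replicates. Every CKO array was below every Ctrl array, and the pairs differed by -0.42, -0.71 and -0.78 on the log2 scale. The means of 299 ± 61.1 in Ctrl and 193 ± 43.0 in CKO cells (SD, n = 3 each) gave a log2 difference of -0.64 (standard error 0.27, 95% interval -1.26 to -0.01). The adjusted p in limma was 0.60, and 0.16 with the replicate block. Its unadjusted p of 0.047 in limma stood at the threshold and was 0.052 with the slide as a block. Vsir met the study's thresholds in 11 of the 20 alternatives and lost them without Ctrl replicate 1 or 2, CKO replicate 1 or 3, or any one pair, with log2 differences between -0.76 and -0.44. On slide 1 the difference was -0.42 and on slide 2 -0.75.

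Counted over the set, the groups did not overlap for 3 lower genes (Ctla4, Lag3 and Vsir), against 7.08% of all genes tested, and for 1 higher gene (Cd160), against 5.95%.

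**Figure D3:**
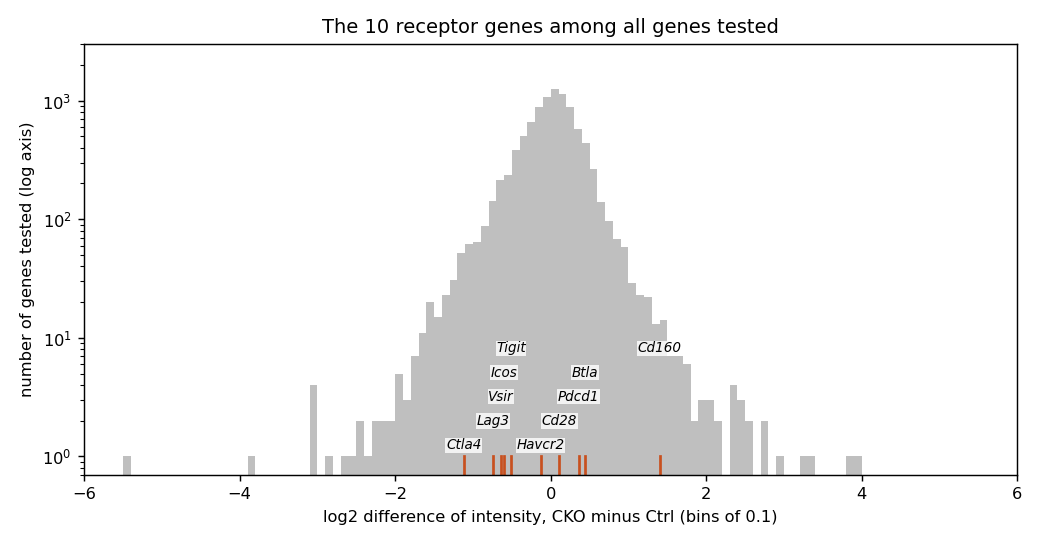
Number of the 9593 genes tested (log axis) by log2 difference of intensity, CKO minus Ctrl, in bins of 0.1, with an orange tick and a name for each of the 10 receptor genes. Most receptor genes lay inside the bulk of all genes, and Ctla4 at -1.12 and Cd160 at 1.40 lay in its flanks.

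The genes around these receptors were taken from lists written with earlier results of these data known. They are given as counts at the study's thresholds without a block, which 4.34% of all genes tested met as lower and 3.09% as higher. With the replicate block these shares were 7.28% and 4.75%, and counts that changed with it are added. Of 17 listed ligands 12 were tested, 1 was lower and 0 higher, and their median log2 difference was 0.08. With the replicate block 1 was lower and 1 higher. Without it the lower one was Lgals9, which encodes galectin-9, a ligand of TIM-3. It gave 45.4, 49.4 and 32.3 in Ctrl and 21.2, 21.8 and 32.6 in CKO replicates 1, 2 and 3, so pair 3 was nearly equal (log2 difference -0.76, adjusted p = 0.48 in limma). The B7 genes Cd80 and Cd86 were dim, at no more than 148 on any array, and Cd274, the gene of PD-L1, lay between 1217 and 2584 with a log2 difference of -0.29.

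Of 21 other receptor genes of this kind 13 were tested, with 2 lower and 2 higher and a median of -0.07. Crtam, a receptor of activated T and NK cells that binds a nectin-like molecule, gave 85.8, 13.2 and 43.0 in Ctrl and 336, 116 and 183 in CKO replicates 1, 2 and 3, with every CKO array above every Ctrl array. Its log2 difference was 2.40 (standard error 0.68), with adjusted p-values of 0.29 without a block and 0.014 with the replicate block. Klrg1, an inhibitory receptor of effector and terminally differentiated regulatory T cells, went the other way, from 1025, 599 and 434 in Ctrl to 423, 224 and 161 in CKO. It was lower in each pair, and no CKO array reached a Ctrl array, with a log2 difference of -1.37 and adjusted p-values of 0.37 without a block and 0.022 with it. Pecam1, an adhesion receptor with inhibitory motifs, was higher (log2 difference 1.21, adjusted p = 0.32 without a block and 0.041 with it), and its other probe gave 1.09. Cd226, the activating partner of Tigit, was lower at a dim level, from 22.8, 26.2 and 36.0 in Ctrl to 8.86, 18.4 and 5.20 in CKO (log2 difference -1.30, adjusted p = 0.26 without a block and 0.085 with it), and its other probe gave -0.91. In CKO replicate 3 Cd226 was not above background. Tigit minus Cd226 within arrays was 0.78 higher in CKO cells with an exact permutation p of 0.40.

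Of 23 genes of kinases, phosphatases and adaptors that carry the receptors' signals 18 were tested, 5 were lower and 0 higher, and the median was -0.29. With the replicate block 6 were lower and 0 higher. Grap2, the adaptor Gads, which binds the tail of CD28, went from 34.6, 39.7 and 55.2 in Ctrl to 13.7, 18.6 and 9.59 in CKO replicates 1, 2 and 3. It was lower in each pair, by a log2 difference of -1.65 (adjusted p = 0.12 without a block and 0.049 with it), and its other probe gave -1.87. The CKO values of Grap2 lay near the background levels of 6.18 to 9.55. Inpp5d, the inositol phosphatase SHIP-1, went from 107, 99.6 and 116 to 71.7, 42.1 and 51.2, and Pik3cd, a catalytic subunit of phosphoinositide 3-kinase, from 273, 430 and 559 to 179, 176 and 214. Dok2, an adaptor that dampens receptor signalling, had a log2 difference of -0.88. For these 3 genes no CKO array reached a Ctrl array, and none passed an adjusted p of 0.05 in limma with the block, at 0.072, 0.066 and 0.066. The phosphatase genes Ptpn6 and Ptpn11, whose products SHP-1 and SHP-2 bind the tails of PD-1 and BTLA, had log2 differences of -0.44 and 0.07 and did not meet the thresholds.

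Of 17 genes of trafficking, shedding and mRNA turnover 13 were tested, and 0 were at the study's thresholds in either direction, with a median of -0.16. With the replicate block 1 was lower and 0 higher. Lrba, whose product protects CTLA-4 from degradation, had a log2 difference of -0.22 (adjusted p = 0.96 in limma). Of 12 transcription factor genes 10 were tested, 0 were lower and 2 higher, and the median was -0.07. Tox, a factor tied to expression of inhibitory receptors in chronically stimulated T cells, gave 317, 188 and 136 in Ctrl and 516, 367 and 407 in CKO, with no overlap (log2 difference 1.08, adjusted p = 0.36 without a block and 0.069 with it). The other was Prdm1 itself, described with the labels below. Of 15 early activation genes, which stimulated T cells switch on quickly, 14 were tested, 0 were at the thresholds, and the median was -0.18. Of the 14, 10 lay below 0 and 4 above. With the replicate block 3 were lower at the thresholds and 0 higher, against 7.28% and 4.75% of all genes. Their summed level was 54110, 40153 and 60466 in Ctrl and 56015, 52348 and 39324 in CKO replicates 1, 2 and 3. Their median level was 1387, 1545 and 1232 in Ctrl and 554, 895 and 879 in CKO, but such a median is the level of a single gene. That gene was Egr3 in CKO replicates 1 and 2 and Il2ra in replicate 3 of both groups, so these medians do not compare like with like. Replicate 1, which has no P+I in its labels, was lowest in neither group by the sum and lowest among CKO arrays by the median. Il2 and Ifng, both in this list, were above background on every array. Il2 gave 9308, 9867 and 13107 in Ctrl and 8597, 11086 and 6980 in CKO replicates 1, 2 and 3. Ifng gave 18891, 4885 and 27726 in Ctrl and 24440, 18347 and 18597 in CKO. The bearing of both genes on the purity of the sorted cells, and on a stimulus in replicate 1, was not tested.

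**Figure D4:**
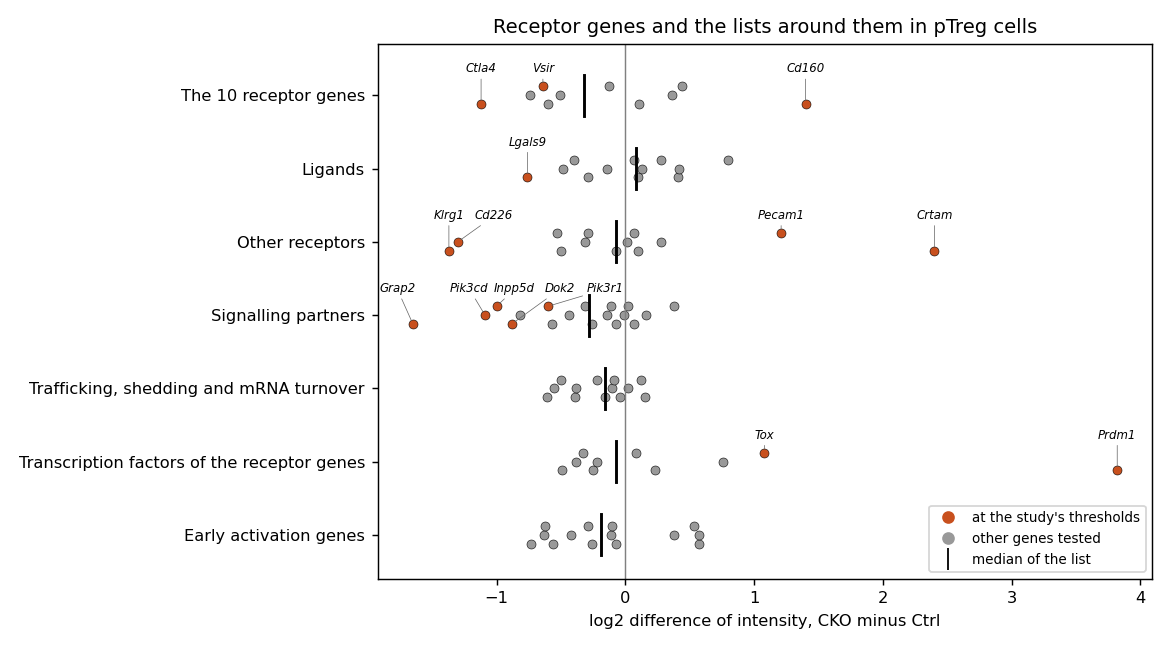
Log2 difference of intensity, CKO minus Ctrl, for the 10 receptor genes and 6 lists around them, with a point for each gene tested, a black bar at the median of each list, and orange points with names for genes at the study's thresholds (1.5-fold or more, with an unadjusted p below 0.05). All 5 orange signalling partners lay below 0, and the 2 orange transcription factor genes lay above it. Of all genes tested 4.34% were lower and 3.09% higher at these thresholds.

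The 5 genes whose profile over the 6 arrays was most like that of Ctla4, by the root mean square difference of log2 values centred on each gene's mean, were Stambpl1 (0.10), Tnfrsf1b (0.13), Cyth3 (0.15), Ank (0.15) and Dok2 (0.17), while the median over all genes was 0.71. Tnfrsf1b, the gene of the TNF receptor TNFR2, gave 628, 667 and 487 in Ctrl and 281, 289 and 232 in CKO. Stambpl1, which encodes a deubiquitinating enzyme, gave 510, 417 and 318 in Ctrl and 204, 194 and 149 in CKO. Both were lower in every pair, as their choice for likeness to Ctla4 fixes. Without a block the adjusted p in limma was 0.14 for Tnfrsf1b and 0.18 for Stambpl1. With the replicate block it was 0.035 and 0.034, which the same choice favours. The choice of these 5 was loose, as other settings shared between 0 and 5 of them.

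Prdm1 gave 18.9, 50.9 and 49.2 in Ctrl and 561, 341 and 704 in CKO replicates 1, 2 and 3. The paper also reports Prdm1 as higher in Blimp1-deficient pTreg cells, and cites earlier work in which Blimp1 directly repressed it. No source used here places its probe inside or outside the floxed region. The deletion could therefore not be checked with this probe, and a second probe was at background on all arrays. Foxp3, on which cells were sorted, gave 480, 212 and 141 in Ctrl and 433, 165 and 216 in CKO on its brightest probe (log2 difference 0.03). A second probe above background on all arrays gave 67.9, 35.7 and 48.6 in Ctrl and 30.9, 19.0 and 37.8 in CKO, lower in each pair (log2 difference -0.80), so the probes differ. Among T cell markers 6 of 7 were on the array, and all 6 were above background on every array, Cd4 only at 17.2 to 62.8. Of 4 B cell markers on the array at most 2 were above background on any array, and Cd8a, Ncr1 and Klrb1c, which mark CD8 T and NK cells, were at background on all 6, while Cd8b1 was above it on all 6 at 544 to 1031, Klre1 and Eomes on 4 each and Klra8 on 3. The 5 Treg markers on the array were above background on every array, and their summed level was lower in the CKO array of each pair, at 7332, 7551 and 4602 in Ctrl and 2989, 3352 and 3151 in CKO replicates 1, 2 and 3. Tnfrsf18, the gene of GITR, made up the largest part of that sum on every array, and Ikzf2, the gene of Helios, gave 792, 834 and 511 in Ctrl and 187, 490 and 181 in CKO. Il2ra gave 632, 1332 and 1232 in Ctrl and 550, 578 and 879 in CKO, lower in each pair. Nrp1 gave 296, 412 and 191 in Ctrl and 265, 546 and 278 in CKO, higher in pairs 2 and 3, so the markers did not all fall together. The part of these differences in the Ctla4 values was not tested. Of 10 myeloid markers on the array 5 to 7 were above background on each, with summed levels of 17077, 2054 and 23303 in Ctrl and 9523, 1366 and 17370 in CKO replicates 1, 2 and 3, most of it S100a8. Itgam, Itgax and Adgre1 were at background on all arrays. The sum was lower in the CKO array of each pair, but in pair 2 Lyz2, Cd14, Fcer1g and Tyrobp were higher in the CKO array, and their part in the receptor values was not tested. Of the red cell markers, Hba-a1 was above background on all 6 arrays, at 1277, 531 and 1858 in Ctrl and 733, 557 and 1629 in CKO. Alas2 was above it on 3 arrays, and the part of red cells in the receptor values was not tested. CD160 is also made by NK cells and intraepithelial lymphocytes. Cd8b1 made up most of the summed level of the 7 NK and CD8 markers. That sum lay between 720 and 1074 in Ctrl and between 554 and 978 in CKO cells, and was lower in the CKO array of each pair. Klre1 and Klra8 were higher in the CKO array of pair 2, at 14.7 against 6.24 and 11.8 against 9.27. Klre1 was lower in the CKO arrays of pairs 1 and 3. Klra8 was at background on both arrays of pair 1 and was higher in the CKO array of pair 3. The part of these markers in the Cd160 values was not tested.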

How the data were processed

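RNA of 3 Ctrl and 3 CKO pTreg samples was measured on Illumina MouseWG 6v2 arrays, from 25 ng of total RNA each. The deposited table holds linear intensity values, which the authors exported from Genome Studio after background subtraction (35.4% to 36.0% of values per array lie below 0) and quantile normalized. The paper calls the samples biological replicates. Slide 1 holds replicate 1 and slide 2 replicates 2 and 3, and the values show that each had been normalized on its own. The 6 columns were therefore quantile normalized together, floored at background and put on the log2 scale. As background, in place of detection p-values, each array's 95th percentile over 1504 probes of olfactory or vomeronasal receptor genes was used (6.18 to 9.55). Probes above it on at least 2 arrays were kept (17294, of which 14811 have 1 gene symbol), and the brightest of each gene gave 9593 genes. Per array 32.3% to 38.3% of probes were above background, and the 3 arrays per group limit the precision.

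Groups, taken from the genotype in the labels, were compared with lmFit and eBayes of limma 3.58.1 in R 4.3.3 without a block, as the methods name none, and p-values were adjusted by Benjamini-Hochberg over all genes tested. Folds come from means of log2 values and intensities are linear. Deviations from group means of same-numbered arrays correlated at 0.51, 0.49 and 0.56 over genes. These values cannot tell a pair from its slide, as the arrays of each pair share a slide and differently numbered arrays were not correlated. The labels of replicates 2 and 3 share a day for each pair, and the numbers were taken to pair the samples. Blocked values are given where they change a call. The procedure without a block was run on simulated data with known changes. The simulated arrays varied independently, unlike the correlated pairs here, so that run has no bearing on the blocked values. Of 45281 probes, 34885 have 1 symbol in the annotation, 18 several and 10378 none. Promoter windows are from RefSeq (GRCm38.p6), and the array files name no build.

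The receptor genes, lists and tests were chosen with earlier results of these data known. Named genes were the 10 receptor genes, from each list up to 4 genes with the smallest p at the study's thresholds, the 5 genes most like Ctla4, and Foxp3 and Prdm1. Cd80, Cd86, Cd274, Ptpn6, Ptpn11 and Lrba were added for their known roles and S100a8 and other markers as checks of cell type. Alternatives were other normalizations, floors and filters, the mean of a gene's probes, limma with trend and robust options, replicate and slide blocks, and leaving out arrays or pairs.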

Additional observations from a re-analysis of the deposited data

How the results depend on the processing

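The log2 differences of Ctla4, Icos, Btla, Cd160, Tigit, Lag3 and Vsir kept their direction under all 20 alternatives. Without single arrays or pairs, Cd28 lay between -0.17 and 0.53, Pdcd1 between -0.16 and 0.98 and Havcr2 between -0.27 and 0.02. The cause of these turns was not tested. Of the 10 receptor genes 1 was called with the replicate block and 0 under every other alternative. With the block over all probes above background none was called, a family chosen after seeing the data. The number at the study's thresholds, 3, was 5 with the replicate block and 1 to 4 without single arrays or pairs. Over all genes the 26 calls became 10 with median scaling, 40 with an offset of 16 in place of the floor, 150 with no filter on dim probes, 50 with trend and robust options, 183 with the replicate block, 16 with the slide block and 0 to 10 without single arrays or pairs, which have fewer samples. The 712 genes at the study's thresholds became 1154 with the replicate block. In the lists around the receptors the 1 call, Prdm1, became 3 with no filter, 5 with the replicate block and 0 without any one array or pair. Of the 5 genes most like Ctla4, 3 were shared with the columns as deposited, 3 with median scaling, 2 with the offset, 3 with the mean of all probes, and 0 to 3 without single arrays or pairs. Pdcd1, Cd226 and, in CKO cells, Grap2 lie near background, where the floor limits the size of a difference.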
